A study of Mus musculus with 6 samples.

Results

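Neat1 and Malat1, 2 long noncoding RNAs of the nucleus, were examined together with Nono, Sfpq, Pspc1, Tardbp, and Rbm14, 5 genes whose proteins reside in paraspeckles. These 7 genes, taken by symbol, are 7 of the 49671 genes in the expression tables. Neat1 and Malat1 were selected on the difference between the treatments measured in these same libraries, so that difference is given as a description without a test. The 5 protein genes were listed for the known location of their products.

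The libraries came from muscle stem cells (MuSCs) of female C57BL/6 mice aged 4 to 6 months, collected from tibialis anterior muscle on day 3 after injection of 50 μL of 1.2% BaCl2, which destroys myofibers. All mice were injured. In 3 mice, resolvin D1 (RvD1), a lipid mediator made from docosahexaenoic acid, was injected i.p. at 100 ng per day in 0.1% ethanol. The other 3, labeled vehicle, were given 0.1% ethanol without RvD1. MuSCs were sorted as cells with β1-integrin and CXCR4 on their surface and without Sca-1, CD45, CD11b, Ter119, and, per the labels, CD31. Each library stands for 1 mouse with its 2 muscles pooled, and no uninjured group was analysed here.

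A paraspeckle is a nuclear body that assembles on the long transcript of Neat1. A shorter Neat1 transcript, which shares the 5′ end and stops at an upstream polyadenylation signal, cannot build the body by itself. SFPQ, NONO, and PSPC1 are related RNA-binding proteins of the DBHS family that coat Neat1, RBM14 helps to hold the body together, and TDP-43, the product of Tardbp, binds UG-rich RNA. Malat1 is transcribed from the neighboring locus and accumulates in nuclear speckles, which hold splicing factors.

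Both noncoding genes lie on the minus strand of chromosome 19 in GRCm38 (mm10). Neat1 (ENSMUSG00000092274) spans 5824708 to 5845478 and Malat1 (ENSMUSG00000092341) spans 5795690 to 5802672, with 22035 bases between them. GENCODE M21 lists 4 transcripts for each. Neat1-201 is the long form, with 1 exon of 20771 bases. Neat1-202, of 3004 bases, starts 2 bases inside it and ends 17599 bases before its 3′ end. Malat1-201 is an unspliced transcript of 6983 bases, and the other Malat1 transcripts are spliced and only 485, 556, and 656 bases long. Rbm14 (ENSMUSG00000006456, 4800569 to 4811634) is on the minus strand of chromosome 19 as well. Nono (ENSMUSG00000031311) is on chromosome X at 101429318 to 101448591, Pspc1 (ENSMUSG00000021938) on chromosome 14 at 56720710 to 56778316, and Sfpq (ENSMUSG00000028820) and Tardbp (ENSMUSG00000041459) on chromosome 4 at 127021324 to 127037013 and at 148612382 to 148627019.

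The cDNA was primed with oligo(dT), so the 3′ ends of the noncoding transcripts are shown. Capitals mark the hexamer AATAAA and runs of at least 5 A. Neat1-202 ends at chr19:5842307-5842386 with the hexamer close to its end. Neat1-201 ends at chr19:5824708-5824827 without that hexamer and with an A-rich tail of its own, and Malat1-201 ends at chr19:5795690-5795809.
Neat1-202: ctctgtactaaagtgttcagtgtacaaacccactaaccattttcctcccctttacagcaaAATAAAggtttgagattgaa
Neat1-201: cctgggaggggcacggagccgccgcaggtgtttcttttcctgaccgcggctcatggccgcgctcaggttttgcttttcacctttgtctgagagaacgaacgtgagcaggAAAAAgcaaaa
Malat1-201: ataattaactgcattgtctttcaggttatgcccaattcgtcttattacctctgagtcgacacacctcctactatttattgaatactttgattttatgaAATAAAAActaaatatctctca

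Because Tardbp is among the genes examined, stretches of at least 5 TG repeats, the DNA spelling of UG repeats, were looked for on the transcribed strand alone. Neat1-201 held 3 such stretches, all beyond the end of Neat1-202, and neither Neat1-202 nor Malat1-201 held any. The longest had 24 bases. Cut into windows of 300 bases, 3 of 69 windows of Neat1-201 (4.35%) held a stretch, against 0.948% of the 733155 windows from all M21 transcripts, among which transcripts of 1 gene repeat each other. These letters describe the sequence and say nothing of where TDP-43 bound. The 3 stretches, in capitals with 8 bases on each side, lie on the minus strand at chr19:5838625-5838654, chr19:5826019-5826058, and chr19:5825680-5825709.
Neat1-201, bases 6833 to 6846: ttatttctTGTGTGTGTGTGTGcatgcttc
Neat1-201, bases 19429 to 19452: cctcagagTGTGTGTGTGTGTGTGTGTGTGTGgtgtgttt
Neat1-201, bases 19778 to 19791: tttgcataTGTGTGTGTGTGTGaacctgtg

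Total expected counts, the RSEM estimates of reads per gene, were between 16148026 and 28149176 per library. In the fit across 14494 genes, 0 genes (0%) reached an adjusted p under 0.05 (edgeR), and 503 (3.47%) had an unadjusted p under 0.05, 265 of them (1.83%) higher with RvD1. With DESeq2 the number at an adjusted p under 0.05 was also 0. The 8 markers of MuSCs fixed for this check were all present, with a summed level of 1956 to 2403 TPM, a unit scaled for transcript length and for the library's total. The libraries are bulk RNA, in which fewer cells of a type and less RNA per cell cannot be told apart.

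Neat1, the scaffold of the paraspeckle, had the larger difference of the 2 noncoding RNAs in counts. Its level in CPM, the count as a share of the library total scaled by edgeR's TMM factors, was 73.2, 42.6, and 43.8 in RvD1 replicates 1, 2, and 3. The vehicle replicates had 17.3, 34.9, and 19.3 CPM. The groups did not overlap, although vehicle replicate 2 came near the lower RvD1 libraries. The means were 53.2 ± 17.3 CPM (SD, n = 3) with RvD1 and 23.8 ± 9.68 CPM (SD, n = 3) with vehicle. The log2 fold change was 1.16 (SE 0.30), and it stayed between 0.86 and 1.54 when each library was left out in turn. On the TPM scale, which divides by transcript length, the difference was smaller. Neat1 was at 10.8, 8.24, and 8.03 TPM with RvD1 and at 4.71, 5.69, and 5.14 TPM with vehicle, a ratio of means of 1.74, against 2.23 for CPM. For Malat1 the ratio was 1.89 in TPM and 1.72 in CPM, so by ratio of means the order of the 2 RNAs reversed between the scales. The Malat1 mean in TPM was set by RvD1 replicate 1, at 2663 TPM, against 1259 and 1019 TPM in RvD1 replicates 2 and 3. With limma on log2(TPM + 0.1) the log2 fold changes were alike, at 0.78 (SE 0.20) for Neat1 and 0.80 (SE 0.31) for Malat1.

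Malat1, the nuclear speckle RNA, drew 7.49 to 17.5 times the CPM of Neat1. Its level was 783, 405, and 328 CPM in RvD1 replicates 1, 2, and 3 and 303, 317, and 260 CPM in the vehicle replicates. The groups did not overlap, but RvD1 replicate 3 lay just above vehicle replicate 2, and RvD1 replicate 1 stood far above all other libraries. The means were 505 ± 243 CPM (SD, n = 3) with RvD1 and 293 ± 29.9 CPM (SD, n = 3) with vehicle, and the log2 fold change was 0.79 (SE 0.28). Without RvD1 replicate 1 it was 0.32, and the other omissions gave up to 1.02. Both noncoding RNAs were thus among the 1395 genes (9.62%) without overlap between the groups, 695 of which (4.8%) were higher with RvD1, a position that follows from how they were selected.

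The library that set the Malat1 mean, RvD1 replicate 1, also had the highest fibro-adipogenic marker sum, but not the highest macrophage or endothelial sum. The summed level of 6 markers of fibro-adipogenic cells (Pdgfra, Ly6a, Dcn, Lum, Cd34, and Dpt) was 568 TPM in RvD1 replicate 1, 245 and 360 TPM in the other RvD1 libraries, and 275 to 325 TPM with vehicle. Of these 6 markers, 5 were higher and 1, Ly6a, was lower with RvD1. The summed level of 12 macrophage markers was 44.9 to 67.7 TPM with RvD1 and 59.3 to 98.6 TPM with vehicle, and 11 of the 12 were lower with RvD1. Of the 12, 3 had an unadjusted p under 0.05 (edgeR), all lower with RvD1, beside 3.47% of all genes. These were Lyz2 (log2 fold change −1.06), C1qb (−0.73), and Tyrobp (−1.04), and 0 of the 12 passed after adjustment. The groups did not overlap in 3 of the 12, beside 9.62% of all genes. For 6 endothelial markers the sum was 8.1 to 10.5 TPM with RvD1 and 4.97 to 19.4 TPM with vehicle. All 6 were lower in the fit, 0 of them with an unadjusted p under 0.05 (edgeR). No marker on these lists was at 0 in every library. The part of such cells in the Neat1 and Malat1 levels was not tested.

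**Figure D1:**
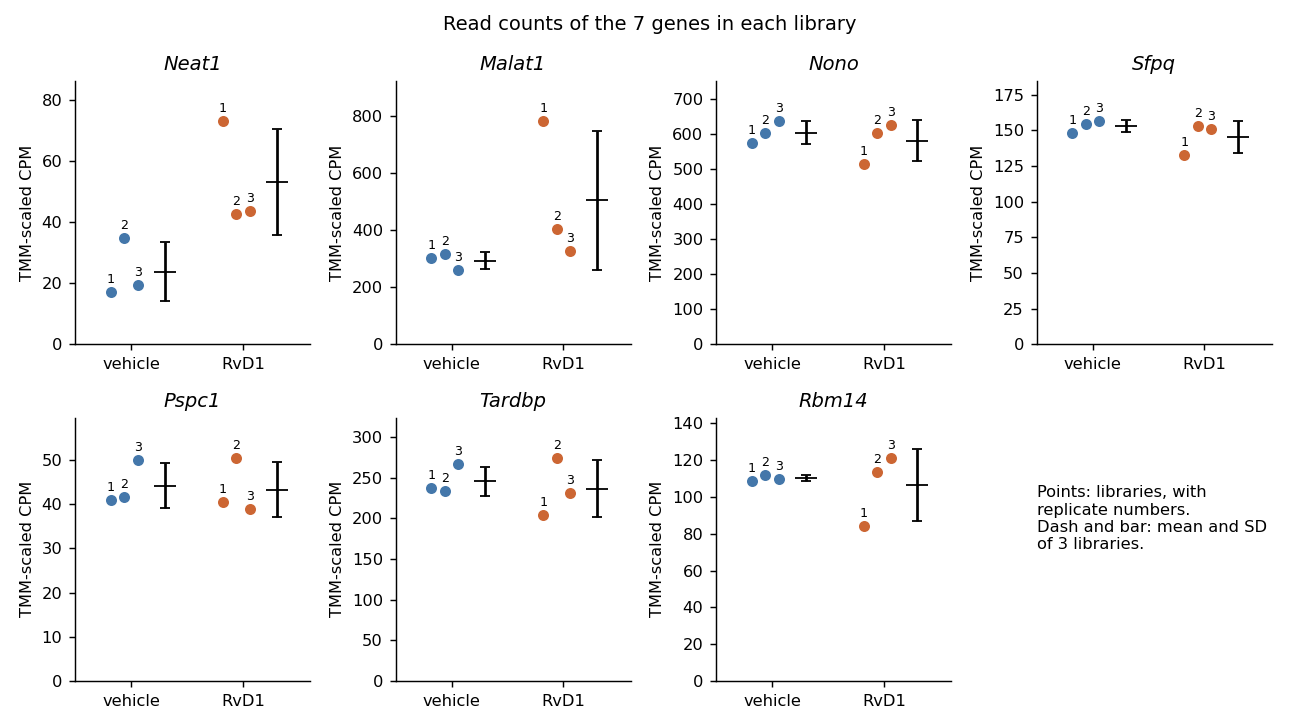
Level of each of the 7 genes in the 6 libraries, in TMM-scaled CPM (vertical axes, from 0), by treatment. Points are libraries with their replicate numbers, and the dash and bar are the mean and SD of 3 libraries; Neat1 and Malat1 do not overlap between treatments, RvD1 replicate 1 is the highest library for both (73.2 and 783 CPM), and the 5 protein genes overlap.

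The genes for the DBHS proteins did not share this difference. Nono was at 515, 604, and 626 CPM in RvD1 replicates 1, 2, and 3 and at 573, 602, and 637 CPM with vehicle. The log2 fold change was −0.06 (SE 0.10, 95% interval −0.28 to 0.17, edgeR adjusted p = 0.971). Sfpq was at 133, 153, and 151 CPM with RvD1 and at 148, 154, and 156 CPM with vehicle. Its log2 fold change was −0.07 (SE 0.09, 95% interval −0.28 to 0.13, edgeR adjusted p = 0.971). For both genes the lowest of the 6 libraries was RvD1 replicate 1, the library in which Neat1 and Malat1 were highest. Pspc1 had 40.6, 50.5, and 38.9 CPM with RvD1 and 40.9, 41.7, and 50.01 CPM with vehicle, with 1 high library in each group. Its log2 fold change was −0.03 (SE 0.14, 95% interval −0.34 to 0.28, edgeR adjusted p = 0.992).

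Tardbp and Rbm14 gave the same picture. Tardbp was at 204, 275, and 232 CPM with RvD1 and at 237, 233, and 267 CPM with vehicle. Its log2 fold change was −0.05 (SE 0.12, 95% interval −0.33 to 0.22, edgeR adjusted p = 0.977). Rbm14 was at 84.3, 114, and 121 CPM with RvD1 and at 109, 112, and 110 CPM with vehicle. Its log2 fold change was −0.05 (SE 0.13, 95% interval −0.35 to 0.25, edgeR adjusted p = 0.977). RvD1 replicate 1 was again the lowest library for both. In all 5 protein genes the groups overlapped, where 9.62% of all genes did not. As folds, the 95% intervals ran from 0.782 at the lowest (Rbm14) to 1.22 at the highest (Pspc1). The small negative signs carry no direction, because each of the 5 reversed under at least 1 alternative. Over the 6 libraries, the coefficient of variation was 5.73% to 11.7% for the protein genes, 52.9% for Neat1, and 48.6% for Malat1. The last 2 values include the group difference on which Neat1 and Malat1 were selected, so they are no separate result. Within vehicle alone, Malat1 varied little, at 293 ± 29.9 CPM (SD, n = 3), but Neat1 varied more, at 23.8 ± 9.68 CPM. Within RvD1 both varied, with 505 ± 243 CPM for Malat1 and 53.2 ± 17.3 CPM for Neat1 (SD, n = 3).

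**Figure D2:**
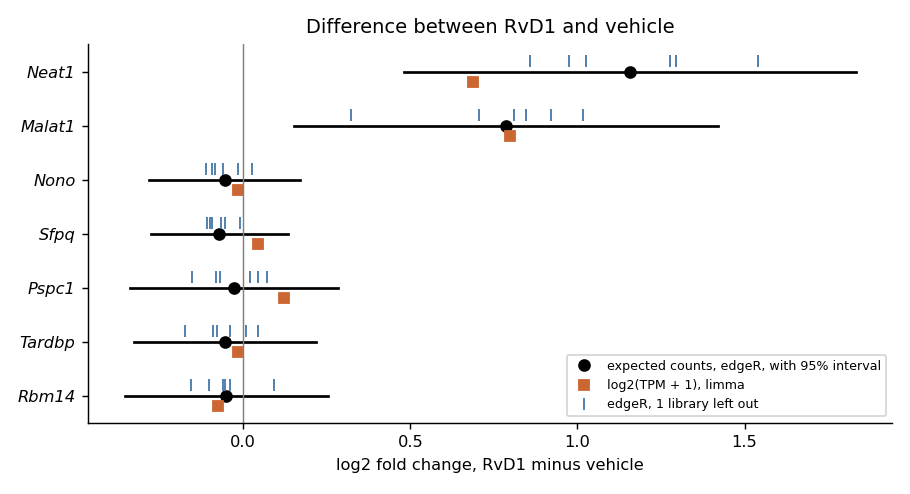
Log2 fold change of each gene, RvD1 minus vehicle (horizontal axis, 0 means equal). Black points and lines are the edgeR estimates from expected counts with 95% intervals, orange squares the limma estimates from log2(TPM + 1), and blue ticks the edgeR estimates with 1 library left out; the intervals of the 5 protein genes include 0, and the tick of Malat1 nearest to 0 (0.32) is without RvD1 replicate 1.

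Whether the protein genes followed the noncoding RNAs was asked across the 6 libraries, with correlations of log2 CPM over 11 relations. All 10 correlations of a protein gene with a noncoding RNA were negative. The coefficients with Neat1 ran from −0.64 (Sfpq) to −0.28 (Pspc1) and those with Malat1 from −0.92 (Sfpq) to −0.25 (Pspc1). The strongest, Malat1 with Sfpq, had Pearson's r of −0.92 (two-sided exact permutation test over all pairings, p = 0.0569, adjusted over the 11 relations 0.214) and Spearman's rho of −0.60 (exact p = 0.242, adjusted 0.659). On the log2(TPM + 1) scale this relation was positive, with r of 0.15, as was that of Neat1 with Sfpq, with 0.31. Malat1 with Nono had r of −0.87 (exact permutation p = 0.0583, adjusted 0.214) and rho of −0.49 (exact p = 0.356, adjusted 0.659). Malat1 with Rbm14 had r of −0.84 (exact permutation p = 0.131, adjusted 0.346) but rho of 0.03 (exact p = 1). For the other 7 relations the adjusted p of r was 0.346 to 0.704 (exact permutation test).

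The size and sign of these relations changed with the libraries and the scale used. Without RvD1 replicates 1 and 2, which were farthest from the median of Malat1, r of Malat1 was −0.57 for Sfpq, −0.36 for Nono, and 0.65 for Rbm14, but −0.97 for Pspc1 and −0.99 for Tardbp. Without vehicle replicates 1 and 3, which were farthest from the median of Neat1, r of Neat1 was −0.89 for Nono, −0.97 for Sfpq, −0.24 for Pspc1, −0.65 for Tardbp, and −0.88 for Rbm14. Each of these values rests on 4 libraries. Without RvD1 replicate 1 alone, 6 of the 10 relations turned positive. For Neat1, r was then 0.26 with Nono, 0.09 with Sfpq, and 0.81 with Rbm14, and for Malat1 it was 0.42 with Rbm14, 0.19 with Tardbp, and 0.09 with Pspc1. Without vehicle replicate 3, r of Pspc1 was 0.05 with Neat1 and 0.02 with Malat1. With deviations from the group means in place of levels, r of Malat1 was −0.95 with Nono (exact permutation within groups, p = 0.0556), −0.92 with Sfpq (exact p = 0.139), and −0.96 with Rbm14 (exact p = 0.111). Of the 10 relations of a protein gene with a noncoding RNA, 0 passed the adjusted threshold in either direction. Both axes of a relation share the library's depth and scaling factor.

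Neat1 and Malat1 moved together in rank. Their r was 0.84 and rho 0.89 over the 6 libraries, values that include the group difference on which both were selected. With deviations from the group means r was 0.69 (exact permutation within groups, p = 0.111), and without the 2 libraries farthest from the median of Neat1, vehicle replicates 1 and 3, it was 0.96. The ratio of Malat1 to Neat1 in CPM was 10.7, 9.50, and 7.49 in RvD1 replicates 1, 2, and 3 and 17.5, 9.07, and 13.5 with vehicle, so the groups overlapped in it. Among each other, as a description, Nono and Sfpq had r of 0.95, the highest of the protein gene pairs, and Pspc1 and Rbm14 had 0.17, the lowest.

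**Figure D3:**
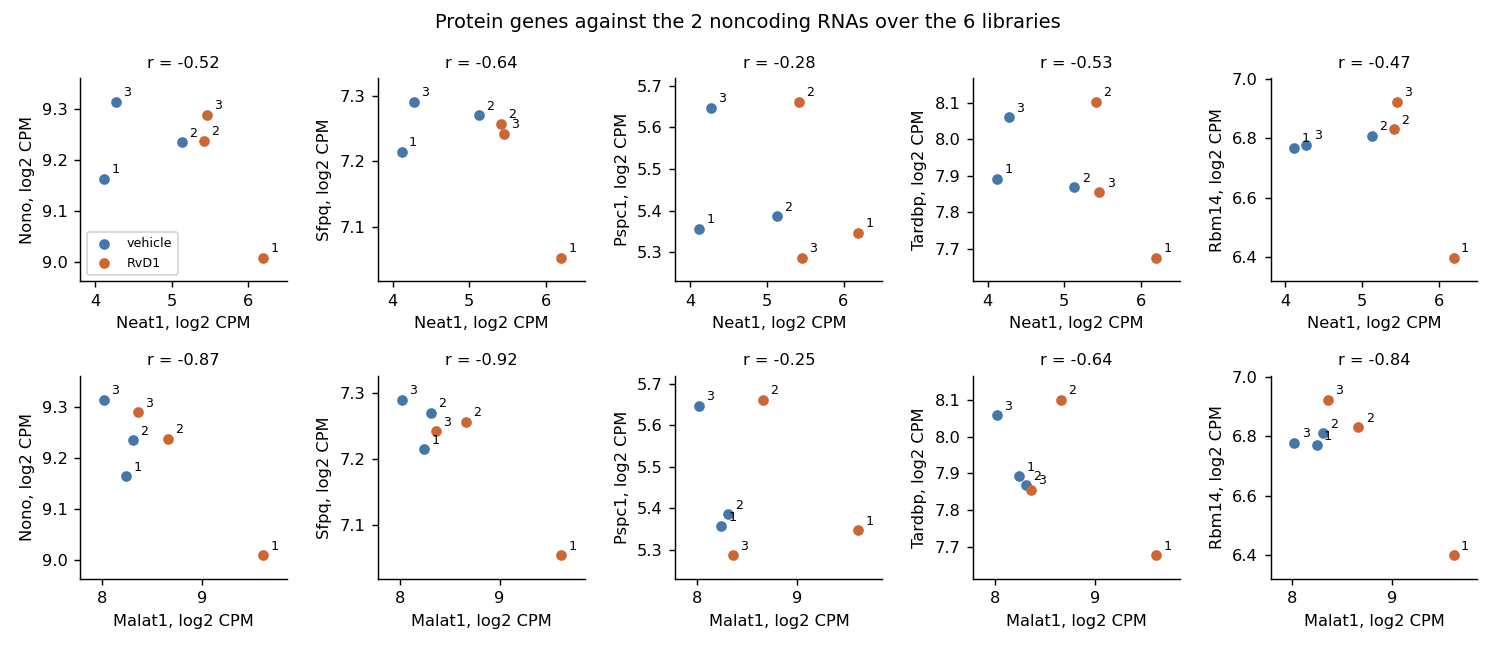
Log2 CPM of each protein gene (vertical axes) against Neat1 (upper row) and Malat1 (lower row) in the 6 libraries, colored by treatment and numbered by replicate, with Pearson's r above each panel. RvD1 replicate 1 lies at the lower right of the panels for Nono, Sfpq, Tardbp, and Rbm14, and without it r of Rbm14 with Neat1 is 0.81.

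The order of levels between genes was read per length, in TPM. In every library it was Malat1, Nono, Tardbp, Sfpq, Rbm14, Pspc1, and Neat1, and no neighbors in this order overlapped. The vehicle means were 870 ± 95.1 TPM (SD, n = 3) for Malat1, 414 ± 11.6 TPM for Nono, 299 ± 20.2 TPM for Tardbp, 103 ± 3.67 TPM for Sfpq, 59.7 ± 4.43 TPM for Rbm14, 27.0 ± 1.49 TPM for Pspc1, and 5.18 ± 0.491 TPM for Neat1. With RvD1 they were 1647 ± 888 TPM, 411 ± 42.5 TPM, 299 ± 57.1 TPM, 106 ± 2.88 TPM, 57.1 ± 9.90 TPM, 29.6 ± 4.02 TPM, and 9.01 ± 1.52 TPM (SD, n = 3) in the same order. Within the DBHS family, Nono was 3.54 to 4.30 times as high as Sfpq and 12.2 to 17.7 times as high as Pspc1 in TPM. By mean TPM over the 6 libraries, Malat1 ranked 77 and Neat1 9179 among the 14494 genes tested. Whether oligo(dT) priming captured the 2 noncoding RNAs as well as the transcripts of the protein genes was not tested.

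The first place of Malat1 depends on the length that RSEM assigned to it. The effective length (the mean length of a gene's transcripts, weighted by their estimated abundance and shortened by about 73.9 bases for read placement) can be recovered as the ratio of expected count to TPM. Calibrated on 621 to 687 genes with a single transcript per library, all of which fell within 20 bases of their M21 length, it was 499 to 539 bases for Malat1, although Malat1-201 has 6983. At most 18.7% to 25.2% of the Malat1 reads can then have been assigned to the full-length transcript, and the rest went to the short spliced ones. Divided by the longest transcript in place of the effective length, Malat1 was at 37.2 to 112 CPM per kb and Nono at 201 to 248 CPM per kb. The ratio of Malat1 to Nono was 1.78 to 7.21 in TPM and 0.150 to 0.558 in CPM per kb of the longest transcript, so the order of the 2 genes reversed in every library. Division by a fixed length leaves the ratio of the treatment means at 1.72, as in CPM. The treatment difference of Malat1 was nearly the same in counts and in TPM, with log2 fold changes of 0.79 and, for log2(TPM + 1), 0.80. Its effective length was 518 ± 19.97 bases (SD, n = 3) in RvD1 and 527 ± 2.62 bases (SD, n = 3) in vehicle libraries (two-sided exact permutation test, p = 0.5).

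A second gene drew on the reads of the Malat1 locus. Gm37376 (ENSMUSG00000102349), an annotated gene of 453 bases that awaits experimental support, lies inside the Malat1 transcript at 5801941 to 5802393 on the opposite strand. The cDNA kit does not keep strand, so reads from the 2 genes cannot be told apart there. The first 60 bases of Gm37376 and the same interval, chr19:5801941-5802000, read along Malat1-201 are reverse complements, and capitals mark the 26 bases that also belong to an exon of the short transcript Malat1-203.
Gm37376-201, plus strand: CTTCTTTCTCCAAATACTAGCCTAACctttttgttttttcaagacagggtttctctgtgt
Malat1-201, minus strand: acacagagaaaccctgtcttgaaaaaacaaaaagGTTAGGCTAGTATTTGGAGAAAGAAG

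RSEM gave Gm37376 360, 225, and 204 CPM in RvD1 replicates 1, 2, and 3 and 184, 200, and 152 CPM with vehicle. It thus tracked Malat1, with r of 0.99 over the 6 libraries as a description of 2 genes that share sequence. Its part of the sum of both genes was 31.5%, 35.8%, and 38.3% with RvD1 and 37.8%, 38.7%, and 37.0% with vehicle. Counted together, both genes had 769 ± 328 CPM in RvD1 and 472 ± 54.1 CPM in vehicle libraries (SD, n = 3), and the log2 fold change of Malat1 with the overlapping counts added was 0.70 (SE 0.25). Other overlaps were smaller. Gm12940, on the strand of Sfpq, had at most 472 counts in a library and Gm21992, on the strand of Rbm14, at most 199, while the small RNA genes inside Neat1 had at most 5.47.

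**Figure D4:**
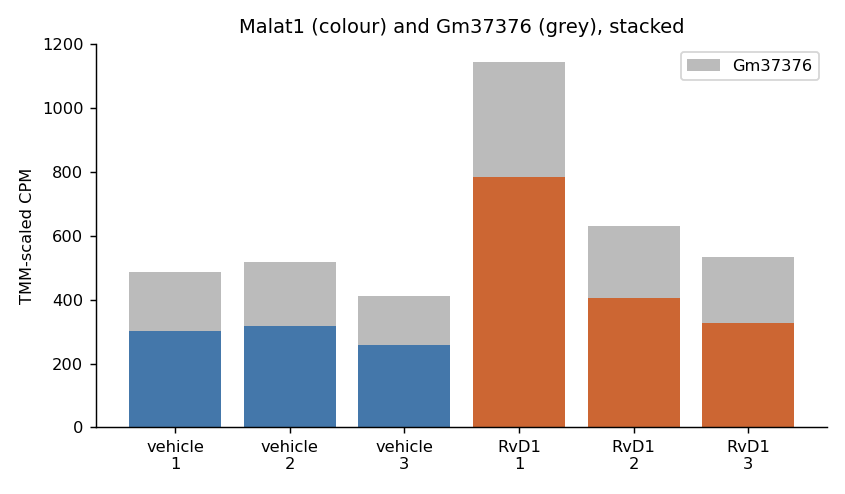
Level of Malat1 (colored by treatment) and, stacked on it, of Gm37376 (grey) in each library, in TMM-scaled CPM. Gm37376 takes 31.5% to 38.7% of the sum in all libraries, and RvD1 replicate 1 has the highest sum (1143 CPM).

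The effective length of Neat1 varied between libraries, unlike those of the other genes. It was 11526, 8283, and 9127 bases in RvD1 replicates 1, 2, and 3 and 5932, 9475, and 5761 bases with vehicle, a 2.001-fold range, where the range was at most 1.21-fold for the other 6 genes (Pspc1). Vehicle replicate 2 lay among the RvD1 libraries. The means were 9645 ± 1683 bases (SD, n = 3) with RvD1 and 7056 ± 2096 bases (SD, n = 3) with vehicle, a difference of 2589 bases within the spread between libraries (two-sided exact permutation test, p = 0.3, where 0.1 is the lowest value that 3 against 3 allows). Of the other genes only Nono had groups that did not overlap in effective length, at 2342 ± 34.4 bases with RvD1 and 2280 ± 17.97 bases with vehicle (SD, n = 3, two-sided exact permutation p = 0.1, the lowest this design allows), 1 of 7 genes compared.

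From the effective length and the M21 transcript lengths, bounds were set on the long form. Neat1-201 made up 48.4% to 54.3% of Neat1 molecules in RvD1 replicate 1, 30.1% to 38.1% in RvD1 replicate 2, and 34.9% to 42.3% in RvD1 replicate 3. In vehicle replicates 1, 2, and 3 the bounds were 16.9% to 26.4%, 36.8% to 44.1%, and 15.9% to 25.5%. The long transcript therefore took most Neat1 reads in each library, with lower bounds from 57.2% to 86.9%. In TPM, the long form was at 5.21 to 5.85, 2.48 to 3.14, and 2.80 to 3.40 in the RvD1 libraries and at 0.796 to 1.24, 2.10 to 2.51, and 0.819 to 1.31 in the vehicle libraries. The shorter forms are Neat1-202, Neat1-203 (1030 bases), and Neat1-204 (711 bases). Neat1-204 starts 17466 bases from the 5′ end, in the part that Neat1-202 lacks, so the group is not the 5′ short form alone. The shorter forms together were at 4.92 to 5.56, 5.10 to 5.76, and 4.63 to 5.23 TPM with RvD1 and at 3.47 to 3.91, 3.18 to 3.59, and 3.83 to 4.32 TPM with vehicle. The long form and the shorter ones were both higher with RvD1 in the group means, with ratios of 2.45 to 2.83 and 1.40. Both are parts of the Neat1 level on which the gene was selected, so this is no separate result. The lower bound of RvD1 replicate 2 for the long form lay just below the upper bound of vehicle replicate 2, so these 2 libraries are not separated. These bounds, and those for Malat1, assume that the annotation used for quantification, which is not given in the sources used here, held the M21 transcripts. They describe the division made by RSEM from single-ended reads, not transcripts observed end to end. Whether oligo(dT) priming captured the long and the shorter Neat1 forms equally was not tested. The bounds are therefore not shares of molecules in the cell.

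**Figure D5:**
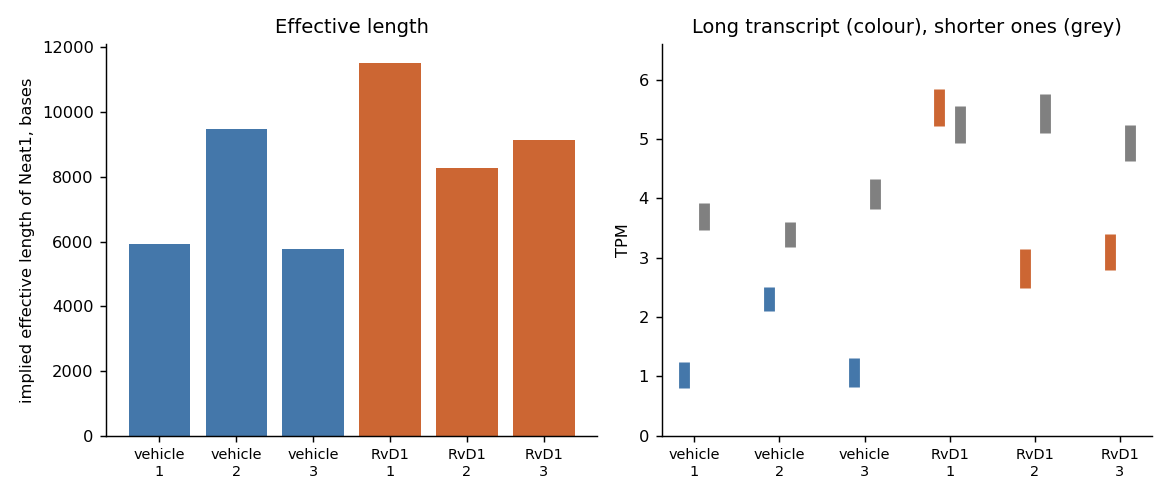
Left, effective length of Neat1 in bases implied by expected count and TPM in each library. Right, range of TPM that this length allows for the long transcript (colored by treatment) and for the shorter transcripts (grey); vehicle replicate 2 has a length of 9475 bases, within the RvD1 range of 8283 to 11526.

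Other genes of the nuclear bodies were read from lists by function. Of 5 further proteins needed to build paraspeckles, 2 were higher and 3 lower with RvD1, with a median log2 fold change of −0.05, against 0.01 for all genes tested (0.05 when scaled by library totals alone). None had an unadjusted p under 0.05 in edgeR. Hnrnph3, an hnRNP protein that binds RNA, had a log2 fold change of 0.18 (SE 0.10). Of 25 other paraspeckle proteins, 24 were tested, 11 higher and 13 lower, with a median of −0.02 and 0 with an unadjusted p under 0.05. Zc3h6, whose mean was 0.57 ± 0.42 TPM in RvD1 and 0.25 ± 0.053 TPM in vehicle libraries (SD, n = 3), had a log2 fold change of 1.23 (SE 0.64), and the cold-inducible Rbm3 had −0.21 (SE 0.11).

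The 18 nuclear speckle proteins, the company of Malat1, had a median log2 fold change of 0.04, with 12 higher and 6 lower. Srsf5, a splicing factor of the SR family, was the one gene with an unadjusted p under 0.05. Its mean was 375 ± 47.5 TPM in RvD1 and 301 ± 19.6 TPM in vehicle libraries (SD, n = 3), with a log2 fold change of 0.25 (SE 0.10, edgeR unadjusted p = 0.0269, adjusted p = 0.971). A share of 1 in 18 stands beside 3.47% of all genes.

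Neighboring genes were examined because Neat1 and Malat1 share a locus. Of 17 symbols on the list of neighbors, 16 were found and 15 tested, 9 higher and 6 lower with RvD1. Their median log2 fold change was 0.02, and 0 had an unadjusted p under 0.05 (edgeR). Frmd8, the next protein gene beyond the 5′ end of Neat1, had a log2 fold change of −0.0017 (SE 0.09). The largest differences were −0.48 (SE 0.30) for Cdc42ep2, an effector of Cdc42, and 0.37 (SE 0.36) for Ltbp3, a binding protein of latent TGF-β.

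Other long noncoding RNAs served as a comparison. Of 24 symbols on the list, 21 were found and 19 tested, 13 higher and 6 lower with RvD1, with a median log2 fold change of 0.10. Only 2900097C17Rik passed an unadjusted 0.05 (0.19 on the log2 scale, SE 0.08, edgeR unadjusted p = 0.0469, adjusted p = 0.971), with 205 ± 11.7 TPM (SD, n = 3) against 169 ± 12.2 TPM. This is 1 of 19 genes, beside 3.47% of all genes. The highest estimates were those of Dnm3os (0.78, SE 0.41) and Meg3 (0.50, SE 0.53), each with a wider error than Neat1. Xist, which coats the inactive X chromosome, had 0.06 (SE 0.14).

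The genes most like each noncoding RNA were ranked by r of log2 CPM among 10457 genes whose mean reached 100 counts. With Neat1 these were Sh3bp5, Zdhhc9, Smug1, Gga3, and 2700049A03Rik, with r of 0.97 to 0.98 over the 6 libraries and log2 fold changes of 0.22 to 0.30. With Malat1 they were Serpina3n, Id4, Aaed1, Dynlt1-ps1, and Apod, with r of 0.99 to 1.00 and log2 fold changes of 0.22 to 0.79. Malat1 ranked 157 in likeness to Neat1, and Neat1 ranked 694 in likeness to Malat1. The protein genes ranked between 6509 (Pspc1) and 9185 (Sfpq) for Neat1 and between 5806 (Pspc1) and 10048 (Sfpq) for Malat1. With 6 points, r above 0.9 was reached by 48 genes for Neat1 and by 249 for Malat1, for which RvD1 replicate 1 lies far from the other libraries.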

How the data were processed

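RNA-Seq libraries of 6 mice were grouped by the treatment in the sample labels. cDNA was made with the SMART-Seq v4 kit and sequenced as 76-bp single-ended reads. Per the submitters' processing notes, reads were aligned to mm10 with STAR 2.5.0a and quantified with RSEM. The deposited expected counts are estimates per gene that are not scaled for depth. For the deposited TPM the authors divided by effective length and set a common total, and for the deposited FPKM by effective length and by the number of fragments. The members and gene lists were chosen with earlier results of these data known.

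Expected counts were rounded and tested with edgeR 4.0.16 (TMM, filterByExpr, quasi-likelihood test, Benjamini-Hochberg over all genes). On simulated counts, 180 of 200 genes changed 4-fold were recovered with 9 false calls among 14257 genes. Correlations used log2 CPM (prior count 2) and exact permutation. Alternatives were DESeq2 1.42.0, limma 3.58.1 with and without sva 3.50.0, other scalings and filters, TPM with pseudocounts of 1 and 0.1, FPKM with 1, a replicate block, and each library left out. Log2(TPM + 1) understates changes of low genes. Gene models were those of GENCODE M21. Named list genes were those with an unadjusted p under 0.05, otherwise the 2 with the largest difference, of which 1 is not reported here. Gm37376, Frmd8, Dnm3os, Meg3, and Xist were named after their values were seen. A count of 0 allows up to 3 counts, or 0.107 to 0.186 CPM by library, for counting error alone, since reads carry no molecular identifiers.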

Additional observations from a re-analysis of the deposited data

How the results depend on the processing

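Every alternative was planned except the addition of overlapping genes, which was chosen after seeing the data. Neat1 and Malat1 were higher with RvD1 under all of them. Without a count filter, 12 genes passed the adjusted threshold, 5 higher and 7 lower, and they include Neat1 with a log2 fold change of 1.15 (edgeR), which is no support because Neat1 was chosen on this difference. With 1 library left out the number was 0 to 1. The protein genes had no stable sign. With the surrogate variable removed, log2 fold changes were 0.00037 for Nono, 0.042 for Pspc1, 0.024 for Tardbp, and 0.015 for Rbm14. With TPM, at pseudocounts of 1 and 0.1, they were 0.043 and 0.044 for Sfpq and 0.12 for Pspc1. Pspc1 also had 0.074 with FPKM, 0.012 with limma-voom, and 0.0072 with library totals alone. Leaving out each library gave −0.11 to 0.025 for Nono, −0.15 to 0.072 for Pspc1, −0.18 to 0.043 for Tardbp, and −0.16 to 0.092 for Rbm14. With log2(TPM + 1), r of Neat1 was 0.31 with Sfpq and 0.39 with Pspc1, and r of Malat1 was 0.15 with Sfpq and 0.43 with Pspc1. With 1 library left out, r of Neat1 ran from −0.82 to 0.26 with Nono, −0.83 to 0.090 with Sfpq, −0.58 to 0.045 with Pspc1, and −0.67 to 0.81 with Rbm14. For Malat1 it ran from −0.42 to 0.091 with Pspc1, −0.90 to 0.19 with Tardbp, and −0.90 to 0.42 with Rbm14. The causes were not tested. No source used here states that mice were paired, so the replicate numbers were not taken as pairs. Same-numbered libraries of the groups had deviation correlations of 0.31, −0.00071, and 0.13. Among vehicle libraries, the same-numbered one correlated most with RvD1 replicates 1 and 3, but not with replicate 2. The replicate block gave 896 genes with an unadjusted p under 0.05 (edgeR), against 503 in the main fit. With the replicate block the number of calls was 0, the difference in Neat1 effective length was 2589 bases, and no sign changed. Neat1 had 279 to 1616 expected counts per library and Malat1 4779 to 17292, with similar standard errors (0.30 and 0.28).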
